A study of Mus musculus with 7 samples.

Results

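The genes of major histocompatibility complex (MHC) class II and of its peptide loading were examined in lipid-laden microglia of male mice of 2 ages after brain ischemia. The 10 genes are the chains H2-Aa, H2-Ab1 and H2-Eb1, the invariant chain Cd74, the transactivator Ciita, the H2-DM genes H2-DMa, H2-DMb1 and H2-DMb2, and the H2-DO genes H2-Oa and H2-Ob. They were found by symbol among the 50686 genes of the files, and all 10 were present in all 7 libraries. The microglia were sorted by FACS from the forebrain of C57BL/6 male mice obtained from Janvier, with antibodies to CD11b and CD45 and as Bodipy+ cells, 4 days after transient occlusion of the middle cerebral artery. Bodipy is a dye that stains neutral lipids, so Bodipy+ cells are microglia rich in lipid droplets. Young mice (14C, 18C, 23C and 29C) were 3 to 4 months of age and old mice (2posI, 3posI and 4posI) 21 to 22 months. There was no drug treatment, no transgene and no sham-operated group in these samples, and each library was made by low input SMARTseq2 without strand information from the cells of 1 mouse. The study asked whether differences with age seen in females are also found in males.

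Class II molecules are pairs of an alpha and a beta chain that present peptides from the endosomal pathway to CD4+ T cells. The invariant chain Cd74 holds newly made pairs, blocks their groove and guides them to endosomes, where proteases trim it to the CLIP peptide. H2-DM then exchanges CLIP for other peptides, and H2-DO restrains H2-DM. The transactivator Ciita does not bind DNA itself. It joins the RFX, NF-Y and CREB factors that sit on the X, X2 and Y boxes of class II promoters, and it is induced in macrophages and microglia by interferon-gamma. Resting microglia have little class II, which is known to increase with age and in injured brain.

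Total expected counts ranged from 36574083 (2posI) to 53002386 (23C) a library. Levels are given as CPM, counts scaled to library size with TMM factors, for one gene across mice, and as TPM, which corrects for length, between genes. Log2 fold changes are old minus young, with their standard error (SE) and the adjusted p of edgeR over 17559 genes. At an adjusted p of 0.05, edgeR called 141 genes, 0.803% of those tested. The sum of 8 microglial markers was 19906 to 29319 CPM in the young and 10074 to 22991 CPM in the old libraries, with the lowest value of each age in 3posI and 23C. The fold changes of the 10 genes are also given without 3posI, and without both.

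The promoters are shown because the class II genes, H2-DM and H2-DO share a known control through these boxes. RefSeq promoters (GRCm38.p6) were matched for 7 of the 10 genes in 8 windows, H2-DMa having 2. H2-Ab1, Cd74 and Ciita had none here. The sequences run 5′ to 3′ up to 150 bases before the RefSeq start, ending where an annotated exon begins. Capitals mark matches on either strand to AACNNATG (core of the X box), CCAAT (Y box, read as ATTGG on the other strand) and TGACG (core of the X2 box), whose matches overlap in H2-Aa.
H2-Eb1 (chr17:34305717-34305866, plus strand): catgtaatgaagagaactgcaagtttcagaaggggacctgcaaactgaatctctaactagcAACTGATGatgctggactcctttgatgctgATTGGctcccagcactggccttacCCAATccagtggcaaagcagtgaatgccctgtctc
H2-Aa (chr17:34287824-34287973, minus strand): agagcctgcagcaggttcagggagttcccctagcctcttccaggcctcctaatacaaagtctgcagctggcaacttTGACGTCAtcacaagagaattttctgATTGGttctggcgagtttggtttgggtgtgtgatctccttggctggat
H2-DMb2 (chr17:34145099-34145235, plus strand): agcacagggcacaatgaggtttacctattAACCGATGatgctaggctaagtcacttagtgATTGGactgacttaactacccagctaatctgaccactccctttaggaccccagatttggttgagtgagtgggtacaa
H2-Ob (chr17:34238755-34238902, plus strand): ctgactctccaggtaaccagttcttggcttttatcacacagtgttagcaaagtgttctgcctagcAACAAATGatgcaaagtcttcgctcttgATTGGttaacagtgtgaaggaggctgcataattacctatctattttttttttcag
In H2-Eb1, H2-DMb2 and H2-Ob the X core was followed by a Y box after 22, 23 and 20 bases. H2-DMb1 also held both, 23 bases apart, but inside an annotated exon, and its sequence is not shown. Its last 150 bases were identical to those of H2-DMb2 at 105 of 121 aligned positions (86.8%). No X core was found for H2-Aa, H2-Oa and both windows of H2-DMa, and the sequences of H2-Oa and H2-DMa are not shown. The windows of H2-DMa, from 34122682 and 34125368, lie inside its annotated gene (34119541 to 34139101). The first begins beside the 5′ end of Brd2, at 34122634 on the opposite strand. Other possible starts of H2-DMa were not examined. In the 250 bases before the start, 4 of the 8 windows held both X core and Y box, against 3.24% of 32851 windows of all genes. The Y box was in 7 of 8 windows (33.8% of all windows), the X core in 4 of 8 (7.71%) and the X2 core in 1 of 8 (17.8%), that of H2-Aa. The motifs were chosen after values or sequences were seen, so these shares are not a test of an excess. The windows are also not independent, as those of H2-DMb1 and H2-DMb2 are alike and both count among the 4. A match is a description of letters. It shows no binding, and a window with no match says nothing of the factor.

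The class II chains were higher in every old than in every young mouse, but did not pass the adjusted threshold. H2-Ab1, the beta chain of I-A, was at 64.0, 42.0, 33.8 and 30.4 CPM in young mice 14C, 18C, 23C and 29C, and at 174, 622 and 128 CPM in old mice 2posI, 3posI and 4posI. All old libraries were above all young ones, and 3posI was far above the other old libraries. It had a log2 fold change of 2.85 (SE 0.53, edgeR adjusted p = 0.0536), and of 1.82 (SE 0.28, edgeR adjusted p = 0.0341) without 3posI. In bulk samples, fewer cells of a type and less RNA per cell cannot be told apart.

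H2-Aa, the alpha chain of I-A, was at 28.9, 12.8, 12.3 and 4.11 CPM in the young mice and at 67.2, 320 and 57.2 CPM in the old mice. Mouse 29C was lowest and 14C highest of the young, a 7.04-fold range, and the lowest old library was still 1.98-fold above 14C. Its log2 fold change was 3.35 (SE 0.76, edgeR adjusted p = 0.0808), and 2.10 (SE 0.55, edgeR adjusted p = 0.117) without 3posI. H2-Eb1, the beta chain of I-E, was at 25.4, 14.3, 11.4 and 4.56 CPM in the young and at 70.1, 356 and 69.8 CPM in the old mice. The order of the young mice was that of H2-Ab1, and 2posI and 4posI were nearly equal. H2-Eb1 had the largest log2 fold change of the 10 genes, 3.57 (SE 0.72, edgeR adjusted p = 0.0631), and one of 2.33 (SE 0.49, edgeR adjusted p = 0.0728) without 3posI. Mice of the C57BL/6 strain lack a working alpha chain of I-E, and H2-Ea-ps was listed at 0 in all 7 libraries, where 3 counts correspond to between 0.0566 and 0.0820 CPM. H2-Eb2 was at 0 in 5 libraries, at 0.664 CPM in 3posI and at 0.130 CPM in 4posI. Both genes were looked at after the values of the chains were seen.

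Cd74, which makes the invariant chain, followed the chains. Its level was 161, 88.1, 78.8 and 54.1 CPM in the young and 357, 894 and 237 CPM in the old mice. The groups did not overlap, and the lowest old library, 4posI, was 1.47-fold above the highest young one, 14C. For Cd74 the log2 fold change was 2.38 (SE 0.49, edgeR adjusted p = 0.0669), and 1.64 (SE 0.37, edgeR adjusted p = 0.0839) without 3posI. Per length, Cd74 was the most abundant of the 10 genes in every old mouse and in young mouse 14C, at 186 TPM in 14C and 946 TPM in 3posI. In the other 3 young mice H2-DMa was above it.

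Ciita was the least abundant of the 10 genes. It had 17, 5, 17 and 6 reads in the young and 31, 203 and 59 reads in the old libraries, or 0.368, 0.112, 0.333 and 0.129 CPM against 0.924, 5.19 and 1.27 CPM. Every old library was above every young one, by at least 2.51-fold between 2posI and 14C. Ciita had a log2 fold change of 3.37 (SE 0.72, edgeR adjusted p = 0.0730), and of 2.21 (SE 0.63, edgeR adjusted p = 0.136) without 3posI. It was 1.87 on log2(TPM + 0.1) and 0.55 on log2(TPM + 1), where the added value outweighs a level this low. With 5 to 17 reads in the young mice, counting error adds to the spread between mice. Ciita overlaps Dexi on the opposite strand over 25888 bases. This is a length of gene that includes introns, and Dexi had 249 to 450 reads in each library. RSEM gives fractions where it shares reads between genes. Expected counts of Ciita were whole in every library, so no such sharing was seen.

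**Figure D1:**
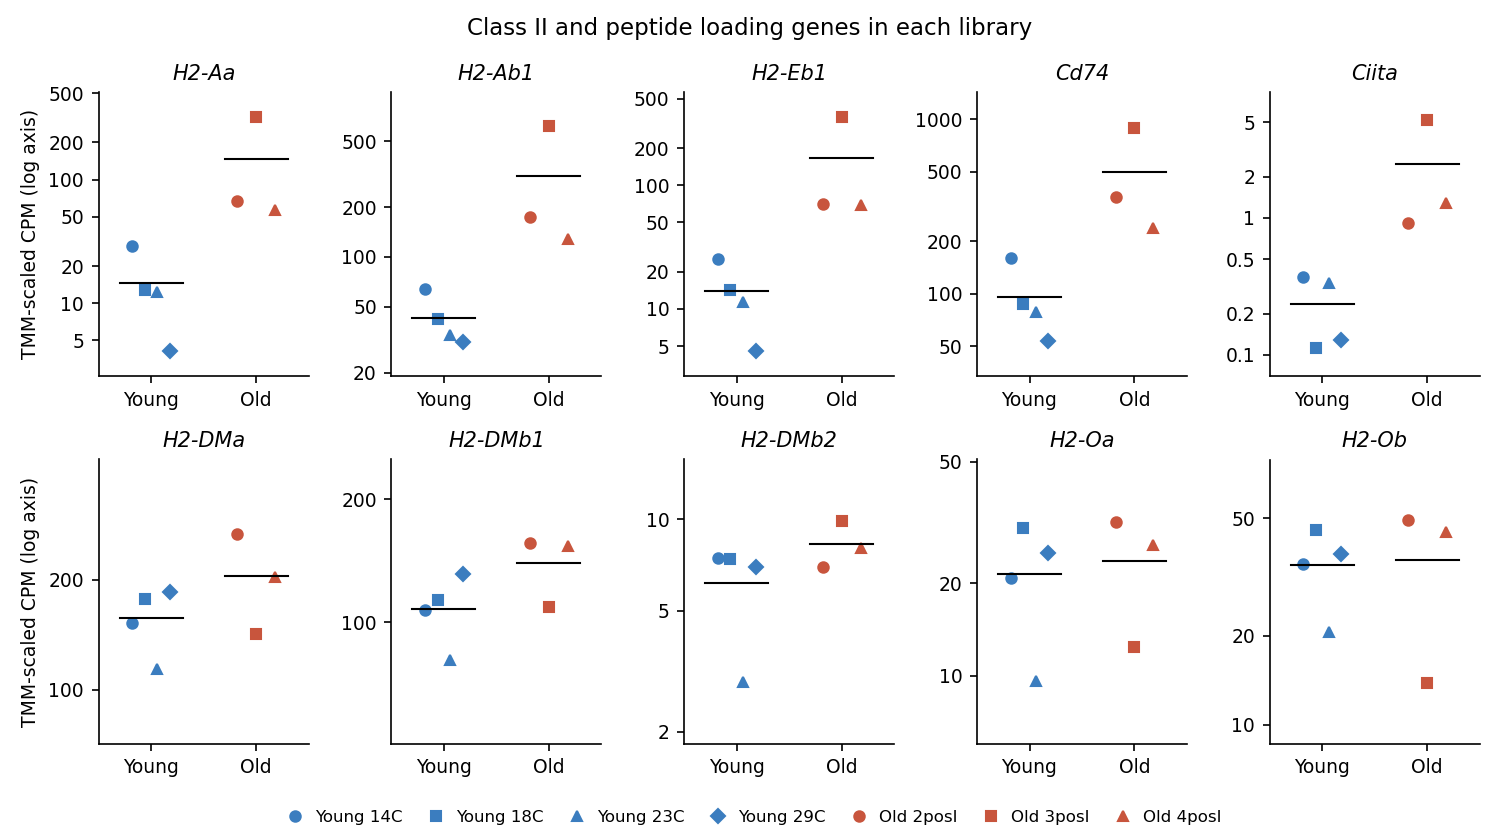
TMM-scaled CPM (log axis, different in each panel) of the 10 genes in the 4 young and 3 old mice. Points are libraries and lines are group means. The chains, Cd74 and Ciita are higher in every old library with 3posI on top, while the ages overlap for the H2-DM and H2-DO genes, with 23C lowest of the young for all 5.

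H2-DM is the peptide exchange factor, and its genes overlapped between the ages. H2-DMa and H2-DMb1 were above each chain in TPM in every young mouse. H2-DMa was at 152, 177, 114 and 186 CPM in the young and at 267, 142 and 204 CPM in the old mice. Mice 2posI and 4posI were above all young mice, whereas 3posI was below 3 of the 4. H2-DMa had a log2 fold change of 0.38 (SE 0.24, edgeR adjusted p = 0.420), which was 0.58 (SE 0.21, edgeR adjusted p = 0.207) without 3posI and 0.14 (SE 0.24) without 2posI. H2-DMa shares 3094 bases with Brd2 on the opposite strand, which had 4256 to 9634 reads a library. Expected counts of H2-DMa were whole in every library, so no sharing of reads by RSEM was seen.

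H2-DMb1, which encodes a beta chain of H2-DM, was at 107, 113, 80.7 and 131 CPM in the young and at 157, 109 and 154 CPM in the old mice. The mice of each age stood in the same order as for H2-DMa, with 23C and 3posI lowest of their ages. Its log2 fold change was 0.37 (SE 0.19, edgeR adjusted p = 0.337), and 0.52 (SE 0.18) without 3posI. H2-DMb2, the other beta chain gene, was at 7.43, 7.40, 2.92 and 6.95 CPM in the young and at 6.98, 9.84 and 8.07 CPM in the old mice. Here 3posI was the highest old library and 23C the lowest of all. H2-DMb2 had a log2 fold change of 0.43 (SE 0.32, edgeR adjusted p = 0.503), of 0.29 (SE 0.36, edgeR adjusted p = 0.719) without 3posI and of 0.19 without 23C. Expected counts of the H2-DMb pair were not whole in any library, as happens when RSEM shares reads between like sequences, so their split is uncertain. Summed into 1 feature, the pair gave a log2 fold change of 0.37 (edgeR adjusted p = 0.329).

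H2-DO, the inhibitor of H2-DM, is known mainly from B cells and some dendritic cells. H2-Oa, its alpha chain, was at 20.8, 30.4, 9.59 and 25.1 CPM in the young and at 31.8, 12.4 and 26.7 CPM in the old mice. Its expected counts were not whole in any library, so part of its reads is uncertain. H2-Oa shares 2895 bases with BC051537 on the opposite strand, which had 1.04 to 17.78 reads a library. H2-Ob, its beta chain, was at 34.9, 45.6, 20.5 and 37.9 CPM in the young and at 49.3, 13.8 and 44.7 CPM in the old mice. For both genes 23C was the lowest young and 3posI the lowest old mouse, and the other libraries of both ages lay together. The log2 fold changes were 0.14 for H2-Oa (SE 0.41, edgeR adjusted p = 0.885) and 0.05 for H2-Ob (SE 0.42, edgeR adjusted p = 0.963). Without 3posI they were 0.44 (SE 0.37) and 0.44 (SE 0.27), and without 2posI they were negative, at −0.13 and −0.25. For H2-Ob the sign was also negative with limma-voom, with an offset for gene length and on TPM, so that these data give it no direction.

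Over the 10 genes, 5 did not overlap between ages and were higher in the old mice, where 8.7% of all tested genes did so. The same 5 (H2-Aa, H2-Ab1, H2-Eb1, Cd74 and Ciita) had an unadjusted p under 0.05 in edgeR and were higher, as did 10.1% of all tested genes. None of the 10 passed the adjusted threshold in edgeR, and limma-voom, the test of the study, called none either. DESeq2 called these 5, with 7.99% of all genes called, and edgeR without a count filter called them too, with 1.05% of 27354 genes called. The log2 fold change was above 0 for all 10 genes, with a median of 1.40, against −0.01 over all tested genes. Within the young mice the CV was 71.4% for H2-Aa, 62.4% for H2-Eb1, 56.8% for Ciita, 48.2% for Cd74 and 35.5% for H2-Ab1, 20.5% for H2-DMa and 19.2% for H2-DMb1. It was 41.2% for H2-Oa, 35.3% for H2-DMb2 and 30.2% for H2-Ob, close to that of H2-Ab1.

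**Figure D2:**
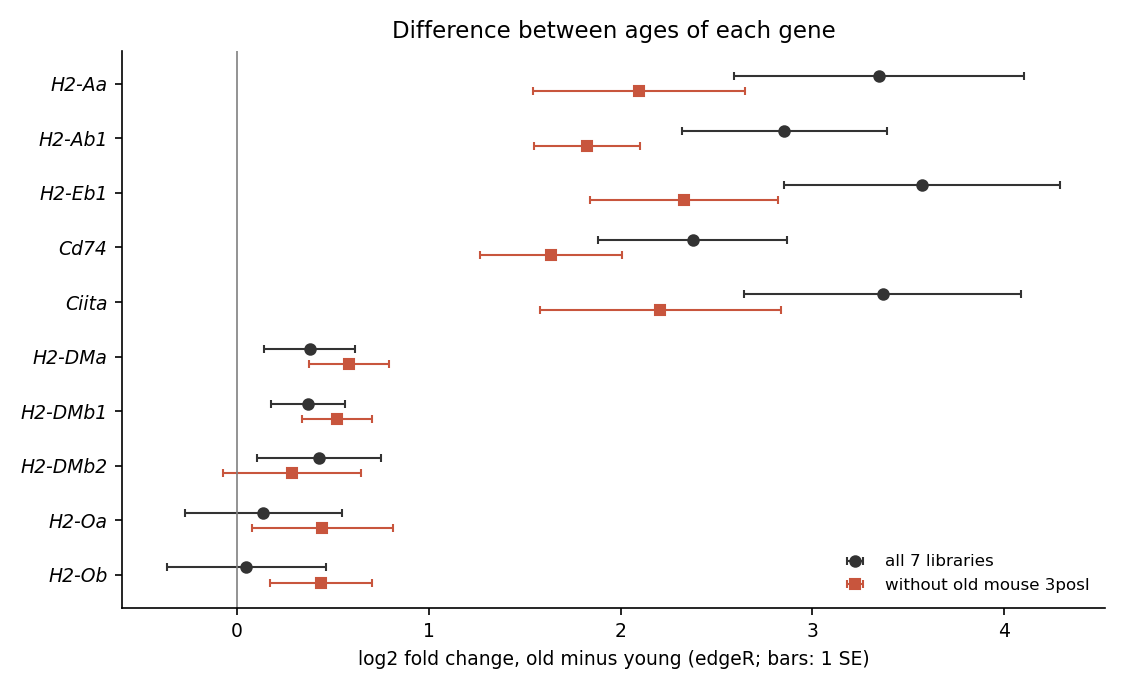
Log2 fold change of the 10 genes, old minus young, with 1 SE from edgeR, from all 7 libraries (circles) and without old mouse 3posI (squares). The chains, Cd74 and Ciita lie between 2.38 and 3.57 with all libraries and between 1.64 and 2.33 without 3posI, whereas the H2-DM and H2-DO genes lie between 0.05 and 0.58 in either fit.

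The chains and the loading genes were not in fixed proportion. Summed over H2-Aa, H2-Ab1 and H2-Eb1, the chains reached 146, 87.9, 71.5 and 44.9 TPM in the young and 335, 1455 and 321 TPM in the old mice. The 3 H2-DM genes summed to 304, 351, 227 and 341 TPM in the young and to 425, 274 and 428 TPM in the old mice. H2-DM was thus 2.09, 3.99, 3.18 and 7.59 times the chains in the young mice, and 1.27, 0.188 and 1.33 times in the old ones. Transcripts of H2-DM exceeded those of the chains in all mice except 3posI, and the excess was smaller in each old mouse than in any young mouse.

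For single pairs, 11 ratios of TPM were compared between the ages by a two-sided exact permutation test, whose smallest possible p is 0.0286 with 3 mice against 4. H2-DMa to H2-Ab1 was 2.34, 4.19, 3.32 and 5.87 in the young mice and 1.49, 0.230 and 1.59 in the old mice. The ratios did not overlap, and their mean log2 differed by −2.19 (exact permutation p = 0.0286, 0.157 after Benjamini-Hochberg adjustment over the 11 ratios). Without 3posI the difference was −1.27. H2-Ab1 was 5.41, 3.10, 4.16 and 1.76% of H2-K1, a class I heavy chain, in the young mice, and 14.4, 52.0 and 9.74% in the old mice. This ratio too did not overlap and differed by 2.54 on the log2 scale (exact permutation p = 0.0286, adjusted 0.157), or by 1.83 without 3posI. H2-K1 itself had a log2 fold change of 0.04 (SE 0.24).

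The balance between the chains was read from 2 further ratios. H2-Aa to H2-Ab1 was 0.488, 0.333, 0.392 and 0.143 in the young and 0.417, 0.553 and 0.478 in the old mice. The ages overlapped through 14C (log2 difference 0.63, exact permutation p = 0.229, adjusted 0.359), and the difference was 0.26 without 29C. H2-Eb1 to H2-Ab1 was 0.407, 0.345, 0.345 and 0.151 in the young and 0.413, 0.585 and 0.557 in the old mice. Here the ages did not overlap, although 14C and 2posI differed little (log2 difference 0.80, exact permutation p = 0.0571, adjusted 0.157). Without 29C it was 0.49. In 29C, the mouse with least class II, both ratios were the lowest of all.

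Cd74 to H2-Ab1 was the steadiest ratio to a chain, at 2.43, 2.02, 2.25 and 1.69 in the young and 1.98, 1.39 and 1.78 in the old mice. It overlapped between the ages (log2 difference −0.29, exact permutation p = 0.171, adjusted 0.314). Against the sum of the 3 chains, Cd74 was 1.28, 1.20, 1.29 and 1.31 times as abundant in the young mice and 1.08, 0.650 and 0.876 times in the old mice. The old mice were below the young ones, and only in 3posI and 4posI were there fewer transcripts of Cd74 than of the chains together. The transactivator was rare beside its target in all mice. H2-Ab1 had 174, 376, 101 and 236 times the CPM of Ciita in the young and 188, 120 and 100 times in the old mice, with no correction for length. These values overlapped, and the log2 difference of Ciita to H2-Ab1 was 0.08 in CPM but −0.59 in TPM with 0.1 TPM added (exact permutation p = 0.171, adjusted 0.314), since Ciita was below 0.1 TPM in 3 of the 4 young mice. With 1 TPM added it was −1.89 (exact permutation p = 0.0286). Ciita was 0.596, 0.224, 1.00 and 0.132% of Nlrc5, the transactivator of class I, in the young and 2.42, 6.01 and 1.89% in the old mice (log2 difference 1.81, exact permutation p = 0.0571, adjusted 0.157). These ratios did not overlap, but with 1 TPM added to both genes the difference was 0.49 (exact permutation p = 0.229).

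Among the loading genes the ratios overlapped between the ages. H2-DMb1 to H2-DMa was 0.614, 0.548, 0.627 and 0.620 in the young and 0.520, 0.673 and 0.659 in the old mice (log2 difference 0.03, exact permutation p = 0.80). H2-DMb2 was 11.7, 9.44, 5.16 and 8.65% of H2-DMb1 in the young and 6.97, 11.2 and 7.49% in the old mice (log2 difference −0.01, exact permutation p = 1.00). For H2-Oa to H2-DMa the log2 difference was −0.21 (exact permutation p = 0.429), −0.41 without 23C and −0.03 without 3posI. For H2-Ob to H2-DMb1 it was −0.53 (exact permutation p = 0.286), or −0.11 without 3posI. H2-DO summed to 19.2, 24.3, 13.5 and 18.7% of H2-DM in the young and to 17.4, 9.48 and 17.9% in the old mice. The inhibitor was least abundant beside H2-DM in 3posI and 23C.

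**Figure D3:**
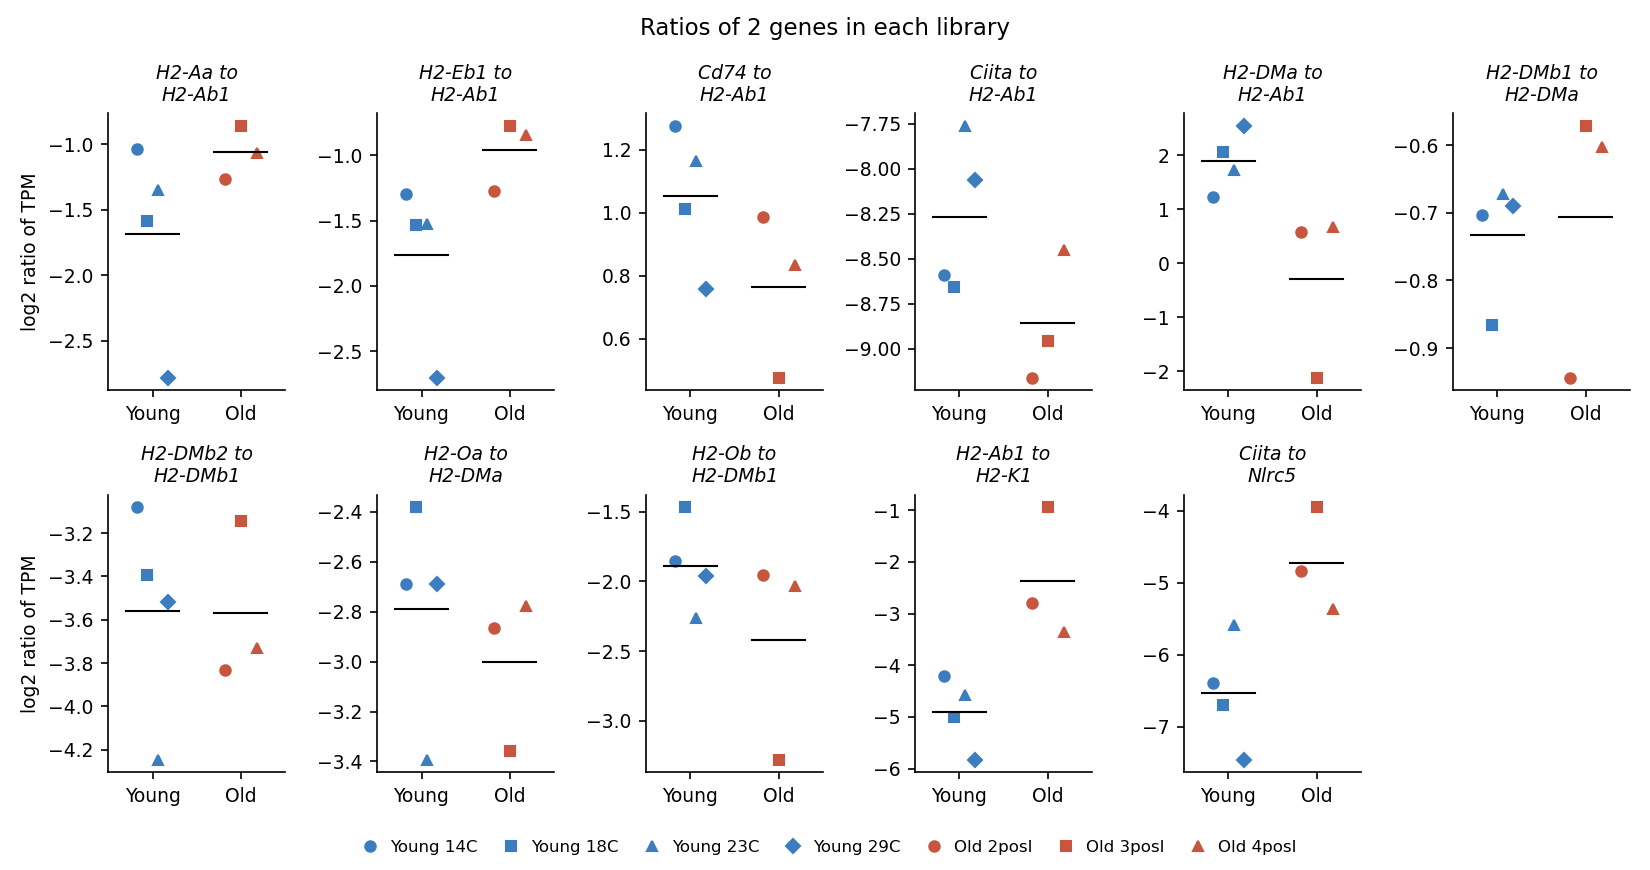
Log2 ratio of the TPM of 2 genes (0.1 TPM added to both) in each library, for the 11 ratios compared, with a different axis in each panel. Lines are group means. H2-DMa to H2-Ab1 is lower, and H2-Eb1 to H2-Ab1, H2-Ab1 to H2-K1 and Ciita to Nlrc5 are higher, in every old than in every young mouse, and the other 7 ratios overlap.

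The profiles of the 10 genes over the 7 libraries were compared with each other and with those of all genes. Likeness was measured as the root mean square difference of log2 CPM (prior count of 1) after each gene was centred on its mean. From H2-Ab1, Cd74 was at 0.248, and none of the 8137 other genes compared was nearer. Ciita was at 0.573, H2-Eb1 at 0.592 and H2-Aa at 0.598, with 2, 2 and 3 genes outside the list nearer. H2-DMb2 was at 1.22, H2-DMb1 at 1.39, H2-DMa at 1.43, H2-Oa at 1.65 and H2-Ob at 1.81, with 701 to 7676 genes nearer. Without 3posI, a comparison chosen after seeing the data, Cd74 was at 0.173, again with none nearer, while H2-Eb1, H2-Aa and Ciita were at 0.572 to 0.596 with 77 to 106 genes nearer. The H2-DM and H2-DO genes were then at 0.723 to 0.851 with 404 to 1616 genes nearer, so that much of their distance came with that mouse. The other genes nearest to H2-Ab1 were Cytip (0.536), Dpep2 (0.562), Arhgap15 (0.598), Clec4a1 (0.599) and Slamf7 (0.607). All 5 peaked in 3posI, for example Slamf7, a receptor of leukocytes, at 83.6 CPM there and 2.68 to 14.5 CPM elsewhere. Without 3posI, 1 of these 5, Arhgap15, was still among the 5 nearest.

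Nearest to Ciita were AA467197 (0.201), Ms4a4b (0.334), Runx3 (0.400), Dpep2 (0.408) and Vegfa (0.418). Runx3, a transcription factor, was at 0.626 to 3.05 CPM in the young and at 6.88, 45.7 and 5.25 CPM in the old mice, so it too was highest in 3posI. Nearest to H2-DMa were Dpy19l1 (0.054), Qk (0.078), Pld4 (0.080), Cir1 (0.088) and Chsy1 (0.094), and H2-DMb1 (0.125) came after 13 other genes. H2-Oa (0.342), H2-Ob (0.425) and H2-DMb2 (0.462) were farther, with 1785, 3963 and 4869 genes nearer. Without 3posI, H2-DMb1 was at 0.119 with 26 genes nearer and H2-Ob at 0.179 with 153 nearer. Of the 5 genes nearest to Ciita and to H2-DMa, 4 and 3 were among the 5 nearest without 3posI. Pld4, an endosomal nuclease of myeloid cells, was at 536 to 934 CPM in the young and at 1380, 755 and 935 CPM in the old mice, the order of H2-DMa in the old. These distances are a description over 7 libraries, which differed in their total counts and in their summed cell type markers.

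**Figure D4:**
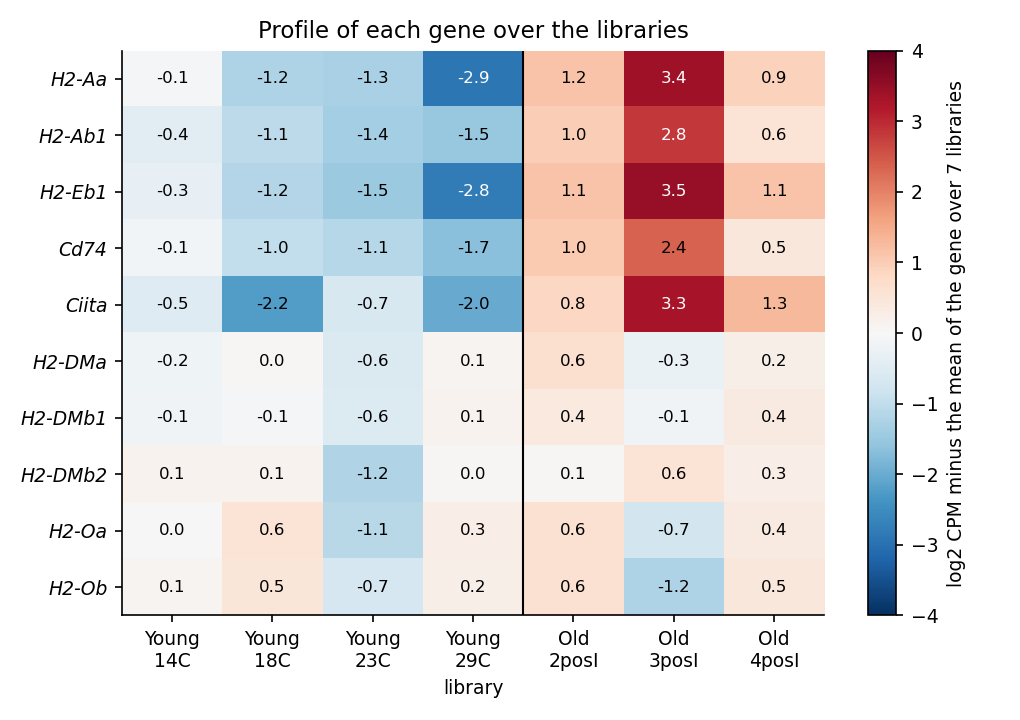
Log2 CPM of the 10 genes in each library minus the mean of the gene over the 7 libraries (colour and number). The chains, Cd74 and Ciita are at 2.4 to 3.5 in 3posI and below 0 in every young mouse, whereas H2-DMa, H2-DMb1, H2-Oa and H2-Ob are below 0 in 3posI and in 23C.

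Of the 10 genes, 8 lie within 224335 bases of chromosome 17 (34092340 to 34316674, GRCm38), from H2-Oa to H2-Eb1. They stand in the order H2-Oa, H2-DMa, H2-DMb2, H2-DMb1, H2-Ob, H2-Ab1, H2-Aa and H2-Eb1, so that the 5 loading genes come first and the 3 chains last. The annotation has 9 other genes in this stretch, of which 6 were tested and 0 passed the threshold in edgeR. Of the 6, 2 had an unadjusted p under 0.05 in edgeR, as did 18.9% of all tested genes. The immunoproteasome genes Psmb8 and Psmb9, between H2-DMb1 and H2-Ob, were higher in every old than in every young mouse, as were 8.7% of all tested genes. Psmb8 was at 206, 209, 199 and 287 CPM in the young and at 385, 344 and 301 CPM in the old mice (log2 fold change 0.61, SE 0.17, edgeR adjusted p = 0.123). Psmb9 was at 57.6, 59.2, 53.9 and 84.9 CPM and at 106, 85.2 and 90.0 CPM (log2 fold change 0.55, SE 0.17, edgeR adjusted p = 0.155). Their neighbours Tap1 and Tap2, which transport peptides for class I, had log2 fold changes of 0.02 (SE 0.18) and −0.04 (SE 0.11). Brd2 had a log2 fold change of −0.29 (edgeR adjusted p = 0.425). That of Gm20496 was 2.13 (edgeR adjusted p = 0.528), at 0.311 CPM in 3posI and at most 0.0565 CPM in any other library. The largest log2 fold changes with all libraries were thus those of the chains at the end of the stretch.

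The rest of the pathway was read from 8 lists of 49 genes, 48 of which were tested. None passed the adjusted threshold in edgeR or limma-voom, and DESeq2 called 5 (Ctsd, Rfx5, Jak2, Cd83 and Psmb8), or 5 of 48 where it called 7.99% of all genes. At an unadjusted p under 0.05 in edgeR, 7 were higher and 3 lower in the old mice, or 10 of 48 beside 18.9% of all tested genes, a share near the background. The 8 processing enzymes of the endosome had a median log2 fold change of 0.07. Ctsd, an aspartic protease, was at 41208 to 52209 CPM in the young and at 31941, 25111 and 31864 CPM in the old mice, with no overlap (log2 fold change −0.65, SE 0.23, edgeR adjusted p = 0.191). Ctsh had a log2 fold change of 0.44 (SE 0.17, edgeR adjusted p = 0.217) and Ifi30, a thiol reductase that opens disulfides of antigens, one of 0.69 (SE 0.28, edgeR adjusted p = 0.239), both with overlap. Ctss, which trims the invariant chain, was at 4676 to 7445 CPM in the young and at 10625, 8718 and 7378 CPM in the old mice, again with overlap.

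The 7 subunits of the complex on class II promoters had a median log2 fold change of 0.03. Rfx5, the DNA-binding subunit of RFX, was at 19.9, 21.5, 19.3 and 21.4 CPM in the young and at 15.7, 10.2 and 14.8 CPM in the old mice. It was lower in every old than in every young mouse and lowest in 3posI (log2 fold change −0.59, SE 0.17, edgeR adjusted p = 0.130). Rfxap (log2 fold change 0.22, SE 0.26) and Nfyc (log2 fold change 0.06, SE 0.14) overlapped.

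Of the interferon-gamma pathway, Ifng itself was listed at 0 in all libraries, and the 8 tested genes had a median log2 fold change of 0.03. Jak2, a kinase of the receptor, was at 16.8, 13.2, 13.4 and 17.4 CPM in the young and at 25.2, 31.7 and 21.6 CPM in the old mice. Every old mouse was above every young one (log2 fold change 0.79, SE 0.18, edgeR adjusted p = 0.0801). Irf1, a target that acts on Ciita, had a log2 fold change of −0.43 (SE 0.22, edgeR adjusted p = 0.337) and Jak1 one of 0.13 (SE 0.11). The 4 regulators of Ciita had a median log2 fold change of −0.06, with Irf8 at −0.13 (SE 0.14), Spi1 at 0.09 (SE 0.12) and Irf4 at −0.22 (SE 0.48).

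Among 7 partners of Cd74 and genes of class II turnover the median log2 fold change was −0.09. Cd83, which keeps class II at the surface by opposing the ubiquitin ligase March1, was at 2888, 2570, 2087 and 3125 CPM in the young and at 1299, 855 and 2070 CPM in the old mice. It was lower in every old mouse, although 4posI and 23C nearly met (log2 fold change −0.92, SE 0.30, edgeR adjusted p = 0.163). March1 overlapped, with a log2 fold change of −0.11 (SE 0.18). Cd44, a partner of Cd74 in signalling, was at 262 CPM in 3posI and 21.5 to 66.1 CPM elsewhere, and Cxcr4 at 56.8 CPM in 3posI and 5.23 to 14.6 CPM elsewhere. Their log2 fold changes of 1.39 (SE 0.70) and 1.36 (SE 0.75) thus rest on that mouse.

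Of the 3 costimulatory receptors, Cd40 was at 3.62, 1.63, 5.0 and 4.71 CPM in the young and at 6.44, 16.1 and 5.64 CPM in the old mice, with no overlap (log2 fold change 1.33, SE 0.46, edgeR adjusted p = 0.18). Cd80 (log2 fold change 0.44, SE 0.32) and Cd86 (−0.10, SE 0.30) overlapped. The receptors of class II on T cells were Lag3, which microglia also express, at 154 to 666 CPM (log2 fold change −0.36, SE 0.48), and Cd4 at 1.23 to 10.3 CPM (log2 fold change 0.40, SE 0.79). The 9 genes of class I presentation had a median log2 fold change of 0.30. Beside Psmb8 and Psmb9, H2-D1 had a log2 fold change of 0.47 (SE 0.20, edgeR adjusted p = 0.254), with overlap.

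Markers of other cells that can carry class II were summed in each library, and their part in the differences of the chains was not tested. The study describes microglia as CD45low CD11b+ cells, a gate meant to leave out other leukocytes. Of 52 markers in 7 lists, 48 were tested and 1 passed the threshold, as did 0.803% of all tested genes. This was the immunoglobulin chain Igkc, at 0 to 0.118 CPM in the young and at 45.1, 7.82 and 0.756 CPM in the old mice (log2 fold change 8.82, SE 1.52, edgeR adjusted p = 0.0458). Igkc was under the count of 10 in every young library, so it was tested only because of its counts in old mice. At an unadjusted p under 0.05 in edgeR, 10.1% of all tested genes were higher in the old mice. Of the markers, these were 6 of 6 of T cells, 5 of 6 of monocytes and 5 of 10 of dendritic cells. They were also 3 of 7 tested of B and plasma cells and 1 of 7 of border-associated macrophages. For microglia (8 markers) and neutrophils (4 tested) the number was 0. Lower were 1 dendritic cell marker and 1 microglial marker. An expected count above 10 in 1 library was enough for a gene to be tested. Markers near 0 in the young mice, such as those of T cells, could thus enter through the old mice alone. The numbers of markers are therefore not a test of an excess over all genes. The 6 monocyte markers summed to 75.6, 15, 24.5 and 19.5 CPM in the young and to 64.9, 1934 and 101 CPM in the old mice. Monocyte markers and chains were thus both highest in 3posI, where Chil3 reached 1426 CPM and Ccr2, a chemokine receptor of monocytes, 231 CPM. The sums overlapped through 14C. The log2 fold change was above 0 for all 6 monocyte markers, with a median of 4.11 and a smallest edgeR adjusted p of 0.0539. Of the 6, 3 were higher in every old than in every young mouse, where 8.7% of all tested genes were.

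The 10 markers of dendritic cells summed to 29.4 to 50.5 CPM in the young and to 81.4, 122 and 71.0 CPM in the old mice, with no overlap. Itgax, which activated microglia also express, made up 43.7 to 47.1 CPM of the old sums (log2 fold change 1.00, SE 0.19, edgeR adjusted p = 0.0565). Cd209a was at 0.0860 to 1.48 CPM in the young and at 6.85, 5.09 and 4.49 CPM in the old mice, with no overlap (log2 fold change 3.08, SE 0.77, edgeR adjusted p = 0.0979). Ccr7 was at 44.8 CPM in 3posI and at 0.412 to 3.31 CPM elsewhere (log2 fold change 4.14, SE 0.97, edgeR adjusted p = 0.0856). The log2 fold change was 2.35 for Flt3 (SE 0.86), 2.00 for Clec9a (SE 0.72) and −0.81 for Zbtb46 (SE 0.35), with edgeR adjusted p of 0.194, 0.189 and 0.261. Xcr1 and Clec9a, which mark cross-presenting dendritic cells, were below 1 CPM in all libraries. The 7 markers of border-associated macrophages, which also carry class II, summed to 129 to 470 CPM in the young and to 543, 1522 and 171 CPM in the old mice, overlapping.

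The 10 markers of B and plasma cells summed to 50.4 to 205 CPM in the young and to 345, 90.8 and 215 CPM in the old mice. Most of that sum was Ighm, and the B cell markers Ms4a1 and Cr2 stayed below 0.5 CPM and Pax5 at 0 in all libraries. The B and plasma sum, H2-Oa and H2-Ob were all lowest in 23C among the young and in 3posI among the old mice, as were the microglial markers P2ry12 (441 and 341 CPM) and Tmem119 (1027 and 850 CPM). The 6 T cell markers summed to 0.151 to 0.628 CPM in the young and to 1.42, 3.32 and 3.17 CPM in the old mice, with Cd3e and Cd3g at 0 in 2posI. The 5 neutrophil markers summed to 1.22 to 101 CPM in the young and to 29.4 to 95.1 CPM in the old mice, with Mpo at 0 in 4 of the 7 libraries.

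The mice with the lowest P2ry12 of their ages, 3posI and 23C, were left out together, a choice made after seeing the data. This left 2 old and 3 young mice. The log2 fold change was then 1.73 for H2-Ab1 (SE 0.29, edgeR adjusted p = 0.0487), 2.25 for H2-Eb1 (SE 0.55, edgeR adjusted p = 0.10), 2.03 for H2-Aa (SE 0.62, edgeR adjusted p = 0.153), 1.56 for Cd74 (SE 0.40, edgeR adjusted p = 0.114) and 2.42 for Ciita (SE 0.69, edgeR adjusted p = 0.136). For the loading genes it was 0.46 for H2-DMa (SE 0.16), 0.41 for H2-DMb1 (SE 0.13), 0.05 for H2-DMb2 (SE 0.19), 0.20 for H2-Oa (SE 0.18) and 0.25 for H2-Ob (SE 0.15). These differences of the chains, Cd74 and Ciita were larger than those of the H2-DM and H2-DO genes. Both remaining old mice were still above every young mouse in the summed markers of dendritic cells, of B and plasma cells and of T cells. They were not so for monocytes, border-associated macrophages or neutrophils. The part of cell composition was not tested.

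**Figure D5:**
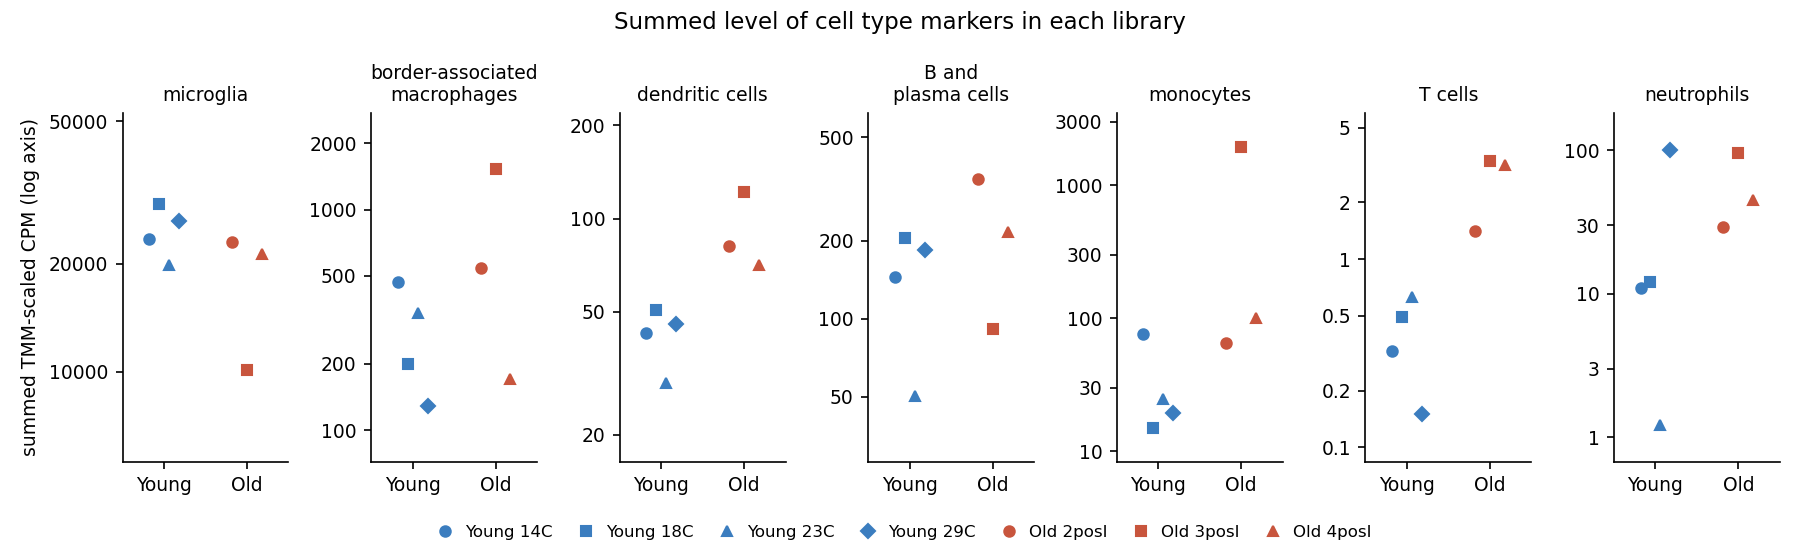
Summed TMM-scaled CPM (log axis, different in each panel) of the markers of 7 cell types in each library. Points are libraries. Monocyte markers reach 1934 CPM in old mouse 3posI against 15 to 101 CPM in the other mice, and microglial markers are lowest in 3posI, at 10074 CPM.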

How the data were processed

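RNA-seq of Bodipy+ microglia was compared between 3 old and 4 young ischemic male mice, as grouped by the labels. The authors trimmed the reads with skewer, aligned them with STAR to GRCm38 and quantified genes with RSEM (GENCODE m15 annotation). For STAR and RSEM the version is not given in the sources used here. Reads were checked with FastQC 0.11.5 per the labels. The deposited files hold expected counts, TPM and FPKM per gene. The FPKM deposited by the authors were not used. No molecular identifiers are named, so counting error is not that of single molecules.

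The expected counts were first rounded to integers. A gene was tested if its expected count exceeded 10 in 1 library or more and it was autosomal, following the study. The age groups were compared with edgeR 4.0.16 in R 4.3.3 (TMM, quasi-likelihood test, Benjamini-Hochberg over all tested genes, threshold 0.05). CPM are TMM-scaled. Ratios used TPM with 0.1 TPM added, and an exact permutation test of mean log2 ratios. limma 3.58.1 and DESeq2 1.42.0, other normalizations, filters and units, and leaving out libraries were alternatives. The scripts were tested on simulated data. GENCODE vM21, not the release of the authors, gave the coordinates, and 224 identifiers had no entry in it.

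The members and lists were chosen with earlier results of these data known. Named were all 10 genes, the genes of each ratio, the 3 genes of each pathway list with the smallest p, the 5 nearest profiles to H2-Ab1, Ciita and H2-DMa (mean of at least 10 CPM, or 1 CPM for Ciita) and cell type markers. Ctss, March1, Tap1, Tap2 and Gm20496, the motifs, H2-Ea-ps, H2-Eb2, the overlapping genes Dexi, Brd2 and BC051537 and the profiles without 3posI were added after values or sequences were seen.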

Additional observations from a re-analysis of the deposited data

Results flagged for a closer look

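Of 44 values looked at in the young mice, 4 had a highest or lowest mouse far from the other 3. The gap to the nearest mouse, as a share of the range of the group, was above Dixon's critical value in these, and 2.2 of 44 would be expected by chance at 1 in 20. H2-DMb2 was at 2.92 CPM in 23C and at 6.95 to 7.43 CPM in the others, a share of 0.893. Psmb8 was at 287 CPM in 29C and at 199 to 209 CPM in the others, a share of 0.888. The log2 ratio of H2-Eb1 to H2-Ab1 was −2.70 in 29C and −1.53 to −1.30 in the others, a share of 0.833. The log2 ratio of H2-DMb1 to H2-DMa was −0.87 in 18C and −0.70 to −0.67 in the others, a share of 0.839. The group of 3 old mice was not looked at in this way.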

How the results depend on the processing

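Across all tested genes, 141 passed the threshold (70.9% higher in old mice). The count was 1403 with DESeq2 (53.3% higher), 288 without a count filter (54.5%), 64 on log2(TPM + 1) (50%) and 71 on log2(TPM + 0.1) (47.9%), where the median of all genes moved to −0.13. With an offset for effective length it was 196 (58.2% higher). It was 170 without both 3posI and 23C. It ran from 1 to 159 when 1 mouse was left out, with 85 without 4posI (50.6% higher), 14 without 23C, 2 without 29C, 159 without 3posI and 1 each without 14C, 18C or 2posI. Of the 10 genes, 0 passed. This was 5 with DESeq2 and 5 without a count filter (H2-Aa, H2-Ab1, H2-Eb1, Cd74 and Ciita). It was 1, H2-Ab1, with the length offset, with filterByExpr, with counts above 10 in 3 libraries and without both 3posI and 23C, the last chosen after seeing the data. It ran from 0 to 1 when 1 mouse was left out, H2-Ab1 passing without 3posI and without 4posI. The adjusted p of H2-Ab1 ranged from 0.00141 (DESeq2) to 0.145 (without 14C). Of the list genes, 1 passed, and 0 to 3 did when 1 mouse was left out: 2 without 3posI, 3 without 4posI and 0 without any of the others. The log2 fold change of H2-Oa was −0.11 without 23C and −0.13 without 2posI. That of H2-Ob was −0.10 with limma-voom, −0.0090 with the length offset, −0.22 on log2(TPM + 1), −0.23 on log2(TPM + 0.1), and −0.14, −0.25 and −0.14 without 23C, 2posI and 4posI. Leaving out 1 mouse thus gave −0.13 to 0.44 for H2-Oa and −0.25 to 0.44 for H2-Ob. The other 8 genes were above 0 in every alternative run. The cause of these changes was not tested, except that leaving out mice lowers their number. No paired analysis was possible because the old and young mice share no animal number.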
